A study of Homo sapiens with 19 samples.

Results

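The binding of ERRα on heregulin (HRG) was compared between SKBr3 and BT-474 cells, 2 breast cancer lines in which ERBB2, the gene for the receptor HER2, is amplified. Members were the 37195 ERRα peaks of HRG-treated SKBr3 cells and the 41271 ERRα peaks of HRG-treated BT-474 cells, 78466 of the 264623 peaks in the 8 deposited lists of the series. A peak was called shared when it overlapped a peak of the other line's HRG list by at least 1 bp, and SKBr3-only or BT-474-only when it did not. These names refer to the 2 HRG lists alone. Both lines were kept for 24 h without serum and then given 100 µM HRG for 90 min, the concentration that the labels state, and chromatin was immunoprecipitated (ChIP) with an antibody to ERRα. The SKBr3 list pools 2 ChIP libraries against an input library of HRG-treated cells, whereas the BT-474 list rests on 1 ChIP library against an input library of vehicle-treated cells. The cell line, the number of ChIP libraries and the input therefore cannot be told apart in any difference between the lists. There is 1 list per line, no replicate check and no tag count, so the depth is unknown, no P value is given and the 95% intervals (Wilson for shares, Newcombe for differences of shares) cover counting error only.

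ERRα is an orphan nuclear receptor that drives genes of mitochondrial energy metabolism together with coactivators of the PGC-1 family. It binds the ERR response element (ERRE), an extended nuclear receptor site with a single AGGTCA core. HRG is a ligand of HER3 and activates HER2/HER3 pairs, which signal through the MAPK and PI3K routes and induce AP-1 factors of the FOS and JUN families. BT-474 cells express oestrogen receptor α (ERα) and SKBr3 cells do not, as is known from the literature. FOXA1 and GATA3 are factors of the luminal lineage that open chromatin for ERα, TFAP2 factors act in the same lineage, and ETS factors bind many housekeeping promoters.

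The strongest peaks with the ERRE word TCAAGGTCA within 100 bp of their centre are shown because this word was the most enriched over flanking DNA in each of the 4 groups of peaks. All sequences are hg19, 5′ to 3′, with the word in capitals on the strand given, so that TGACCTTGA is the same word read from the other strand. The SKBr3 peak at NDST1 lay in a promoter, the TSPAN9 and CDH13 peaks in introns and the SUCNR1 peak between genes, 22514 bp from the nearest protein-coding start.
NDST1, shared peak of the SKBr3 list, chr5:149866680-149866740, plus strand: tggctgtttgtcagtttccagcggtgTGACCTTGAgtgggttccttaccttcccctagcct
TSPAN9, SKBr3-only peak, chr12:3254210-3254270, plus strand: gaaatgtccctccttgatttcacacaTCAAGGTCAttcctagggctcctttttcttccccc
CDH13, shared peak of the BT-474 list, chr16:83377580-83377640, plus strand: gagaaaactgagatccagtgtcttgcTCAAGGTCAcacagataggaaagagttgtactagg
SUCNR1, BT-474-only peak, chr3:151613878-151613938, plus strand: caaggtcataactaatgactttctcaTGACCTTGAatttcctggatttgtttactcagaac

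The AP-1 word (TGACTCA or TGAGTCA) is shown next because it separated peaks with and without a vehicle peak in both lines. The peak near BRD7 was intergenic, that of SLC45A3 lay 629 bp from its start, and those of CDYL and CNTNAP2 lay in introns.
BRD7, shared peak of the SKBr3 list, chr16:50431286-50431344, plus strand: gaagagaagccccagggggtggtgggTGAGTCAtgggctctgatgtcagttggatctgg
SLC45A3, SKBr3-only peak, chr1:205649014-205649072, plus strand: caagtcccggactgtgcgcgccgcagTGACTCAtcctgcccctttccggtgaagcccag
CDYL, shared peak of the BT-474 list, chr6:4849149-4849207, plus strand: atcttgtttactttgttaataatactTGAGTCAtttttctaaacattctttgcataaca
CNTNAP2, BT-474-only peak, chr7:146397314-146397372, plus strand: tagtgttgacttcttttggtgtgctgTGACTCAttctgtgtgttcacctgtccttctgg

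The palindromic oestrogen response element (ERE: GGTCA and TGACC, 3 bases apart) is shown because it was rarer in SKBr3-only peaks than in the other groups. The SLC12A3 peak lay in a coding exon and the other 3 between genes, at 90253 bp from CCDC80, 138295 bp from MED13L and 176703 bp from FBXO15. The SKBr3-only example had a score of 700 and the BT-474-only example a score of 2999, where the score is the authors' MACS value of −10 log10 P and is compared only within a list.
CCDC80, shared peak of the SKBr3 list, chr3:112450457-112450521, plus strand: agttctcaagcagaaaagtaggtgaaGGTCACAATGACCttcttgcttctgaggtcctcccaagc
SLC12A3, SKBr3-only peak, chr16:56903643-56903707, plus strand: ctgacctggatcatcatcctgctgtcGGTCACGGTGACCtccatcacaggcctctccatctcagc
MED13L, shared peak of the BT-474 list, chr12:116308164-116308228, plus strand: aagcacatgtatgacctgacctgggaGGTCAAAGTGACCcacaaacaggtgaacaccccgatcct
FBXO15, BT-474-only peak, chr18:71613962-71614026, plus strand: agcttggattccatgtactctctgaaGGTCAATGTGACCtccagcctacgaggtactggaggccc

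Most ERRα peaks on HRG were found in 1 line. In SKBr3 cells 15057 of 37195 peaks were shared (40.5%, interval 39.98 to 40.98) and 22138 were SKBr3-only. In BT-474 cells 14838 of 41271 peaks were shared (35.95%, 35.5 to 36.4) and 26433 were BT-474-only. After merging overlapping peaks there were 63060 sites, of which 14489 (22.98%) were shared, 22138 (35.1%) SKBr3-only and 26433 (41.9%) BT-474-only. The same merge gave a shared portion of 29.2% for the vehicle lists of the 2 lines and 24.95% for their EGF lists. BT-474 peaks were wider, with a median of 1957 bp against 1401 bp, and covered 91.5 Mb against 67.9 Mb.

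The strongest peaks were largely common to both lines. The shared portion went from 21.8% in the lowest score decile of the SKBr3 list to 81.0% in the highest, and from 16.5% to 76.7% in the BT-474 list. Of the 1000 highest peaks, 912 of SKBr3 and 874 of BT-474 were shared. The median score percentile within the list was 67.8 for shared and 39.6 for SKBr3-only peaks, and 70.2 for shared and 39.95 for BT-474-only peaks.

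**Figure D1:**
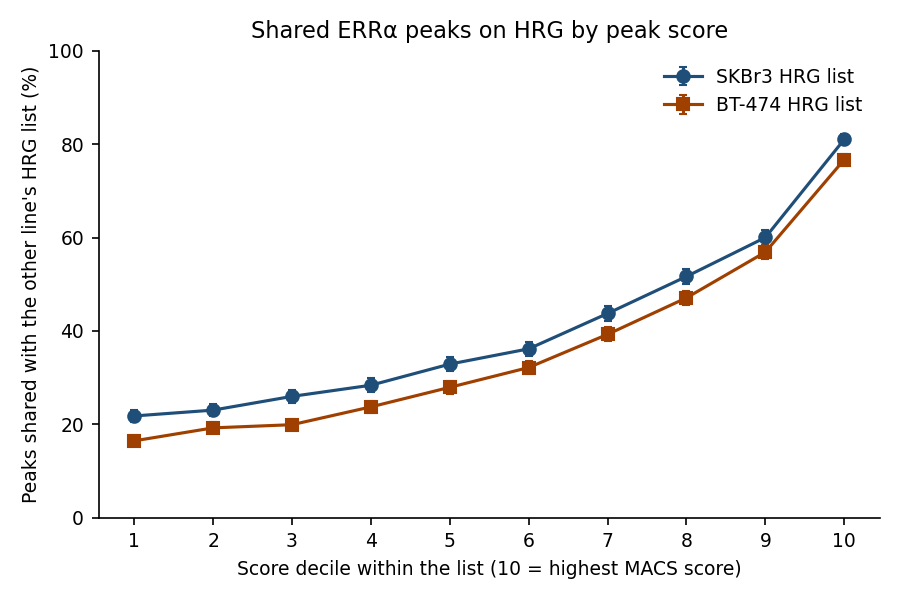
Percentage of peaks shared with the HRG list of the other line (vertical axis) for each decile of MACS score within a list (horizontal axis, 10 is highest), for SKBr3 (circles) and BT-474 (squares), with 95% Wilson intervals. Both lines climb at every step, from 21.8% to 81.0% and from 16.5% to 76.7%.

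Shared peaks had nearby centres but only loosely related strengths. Across 15406 overlapping pairs the centres lay a median of 211 bp apart, and 72.5% of pairs had centres within 500 bp. Over these pairs, which are not independent, the score percentiles of the 2 lists had a Spearman rho of 0.29. Both peaks were in the highest score quartile in 3689 pairs. The SKBr3 peak was in the highest and the BT-474 peak in the lowest quartile in 533 pairs, and the reverse held in 679 pairs. Few peaks missed a partner narrowly: 4.47% of SKBr3-only and 2.38% of BT-474-only peaks lay within 1 kb of a peak of the other list, and the median gaps were 20.9 kb and 43.4 kb.

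The strongest peaks of each group lay near genes of diverse function. The 3 highest shared peaks of the SKBr3 list had BRD7, a bromodomain protein, NDST1, a heparan sulphate modifying enzyme, and GK5, a glycerol kinase family member, as their nearest genes. The 3 highest SKBr3-only peaks lay in an intron of KANK4, 264 bp from a start of NUDT8 and 13391 bp from CRABP2, a retinoic acid binding protein. The NUDT8 peak overlapped the vehicle and EGF lists of BT-474 and the CRABP2 peak its vehicle list, whereas the KANK4 peak overlapped no BT-474 list. The 3 highest shared peaks of the BT-474 list were nearest to NDUFAF4, an assembly factor of respiratory complex I, FUT10 and HSBP1, the last at 464017 bp and inside CDH13. The 3 highest BT-474-only peaks lay in introns of DCC, the netrin receptor, CALCR, the calcitonin receptor, and RBM12B. All 3 had a peak in the vehicle and EGF lists of BT-474. The CALCR peak also overlapped an SKBr3 vehicle peak and the RBM12B peak an LRSKBr3 peak, LRSKBr3 being lapatinib-resistant SKBr3 cells, whereas the DCC peak overlapped no list of SKBr3 origin.

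SKBr3-only and BT-474-only peaks lay in different parts of the genome. Peak centres within 1 kb of a protein-coding start (promoter peaks) made up 18.0% of SKBr3-only peaks (3991 of 22138) and 2.63% of BT-474-only peaks (696 of 26433), a difference of 15.4 points (interval 14.9 to 15.9). Shared peaks were in between, with 14.3% in the SKBr3 list and 12.7% in the BT-474 list. Over 50 kb from any start lay 26.9% of SKBr3-only and 53.9% of BT-474-only peaks, with 31.9% and 31.7% of the shared peaks. Introns held 39.3% of SKBr3-only and 45.1% of BT-474-only peaks, and UTRs and coding exons held few peaks in any group.

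**Figure D2:**
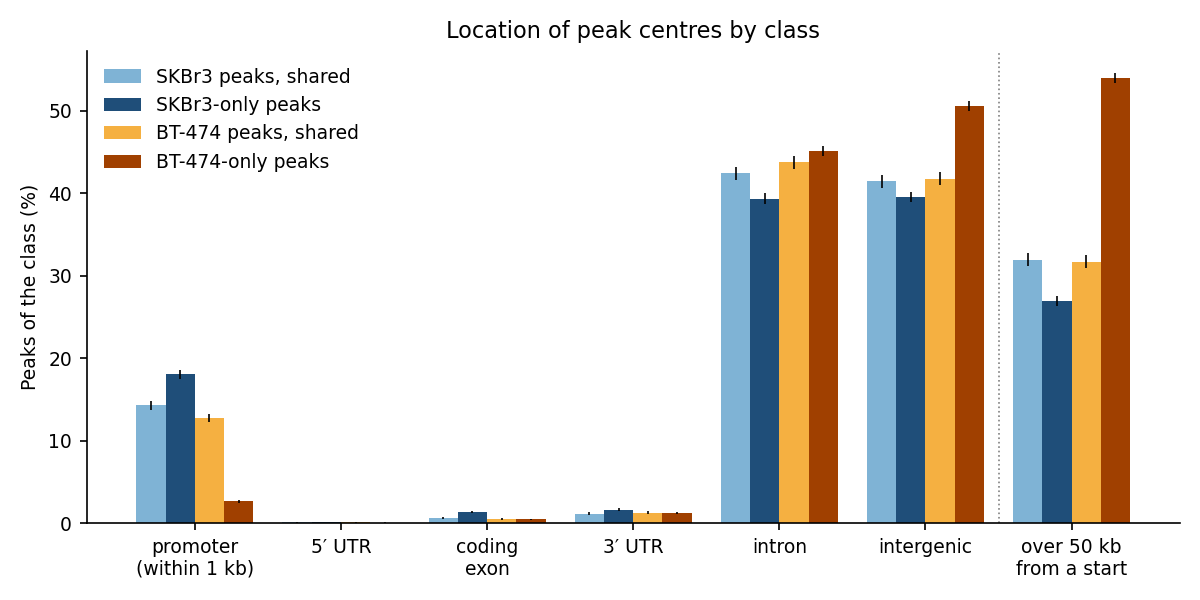
Percentage of peaks (vertical axis) whose centre lay in each annotation class (horizontal axis) for shared and SKBr3-only peaks of the SKBr3 HRG list and shared and BT-474-only peaks of the BT-474 HRG list, with 95% Wilson intervals. Right of the dotted line, the bars over 50 kb from a start overlap the other classes. BT-474-only peaks have the shortest promoter bar (2.63%) and the tallest distal bar (53.9%).

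Base composition differed between these groups. The mean GC content of the 201-bp window at the centre was 52.2% (SD 10.2) in SKBr3-only and 37.6% (SD 7.18) in BT-474-only peaks, against 47.9% and 45.4% in the shared peaks of the SKBr3 and BT-474 lists. When all peaks of both lists were divided into tertiles of GC content, 63.4% of SKBr3-only peaks but 6.52% of BT-474-only peaks were in the highest. The vehicle lists differed less, with a mean of 45.8% in SKBr3 and 42.7% in BT-474. In the gene-rich, GC-rich chromosome 19 the share of the SKBr3 list was 3.18 times that of the BT-474 list, and in chromosome 4 it was 0.529 times. The part of GC content in the location, motif and gene results was not tested beyond the comparisons within tertiles given here.

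The ERRE word marked shared peaks most often. It was found in 7.89% of shared SKBr3 peaks and 7.56% of shared BT-474 peaks, against 3.99% of SKBr3-only and 4.85% of BT-474-only peaks, and in 0.269% to 0.412% of flanking windows 2 kb away. Shared exceeded SKBr3-only peaks by 3.90 points (3.40 to 4.41) and BT-474-only peaks by 2.71 points (2.21 to 3.21). Between SKBr3-only and BT-474-only peaks the order depended on the word and the settings: the 9-letter ERRE was lower in SKBr3-only peaks by a difference of -0.861 points (-1.23 to -0.495), whereas the shorter AAGGTCA was higher by 1.86 points (1.18 to 2.54). The interval of the ERRE difference included 0 with an overlap of at least 50% of both peaks (-0.597 to 0.109), when every list of the other line counted (-0.470 to 0.293), in a window of 50 bp to each side (-0.415 to 0.135) and over 1 kb from a start (-0.692 to 0.115).

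FOXA and GATA words were most frequent in BT-474-only peaks, and ERE words were least frequent in SKBr3-only peaks. The FOXA words (TGTTTAC or TATTTAC) were found in 15.9% of BT-474-only peaks and 7.75% of their flanks, and in 4.36% of SKBr3-only peaks and 4.89% of their flanks, a difference between the groups of -11.6 points (-12.1 to -11.1). The GATA words (AGATAAG or AGATAAC) were found in 8.21% and 3.10%, with 5.49% and 3.84% in flanks. The ERE was found in 61 of 26433 BT-474-only peaks (0.231%) and 15 of 22138 SKBr3-only peaks (0.0678%), a difference of -0.163 points (-0.234 to -0.0956), with flanks of 0.0132% and 0.0271%. In shared peaks the ERE was present in 29 SKBr3 peaks (0.193%) and 32 BT-474 peaks (0.216%), the latter differing from BT-474-only peaks by -0.0151 points (-0.106 to 0.0872). SKBr3-only peaks thus held the lowest shares of all 3 kinds of word.

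SKBr3-only peaks more often held AP-1, TFAP2 and ETS words than BT-474-only peaks. AP-1 was found in 9.61% of SKBr3-only and 6.37% of BT-474-only peaks (3.25 points, 2.76 to 3.74), and in 9.98% and 9.26% of shared peaks, while flanks ranged from 3.10% to 3.33%. The TFAP2 word (GCCNNNGGC) was found in 11.7% of SKBr3-only and 3.42% of BT-474-only peaks, with flanks of 6.13% and 2.54%. The ETS word (CCGGAAG) was found in 10.6% of SKBr3-only promoter peaks against 7.03% of shared SKBr3 promoter peaks and 1.15% of BT-474-only promoter peaks, with 0.954% to 1.006% in their flanks. Words for CTCF were found in 3.05% of SKBr3-only and 1.13% of BT-474-only peaks, with flanks of 2.23% and 1.37%. Those for GRHL factors were found in 0.700% and 1.23%, with flanks of 0.497% and 0.694%. Words for TEAD and RUNX factors differed by 0.557 and -0.900 points (SKBr3-only minus BT-474-only).

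**Figure D3:**
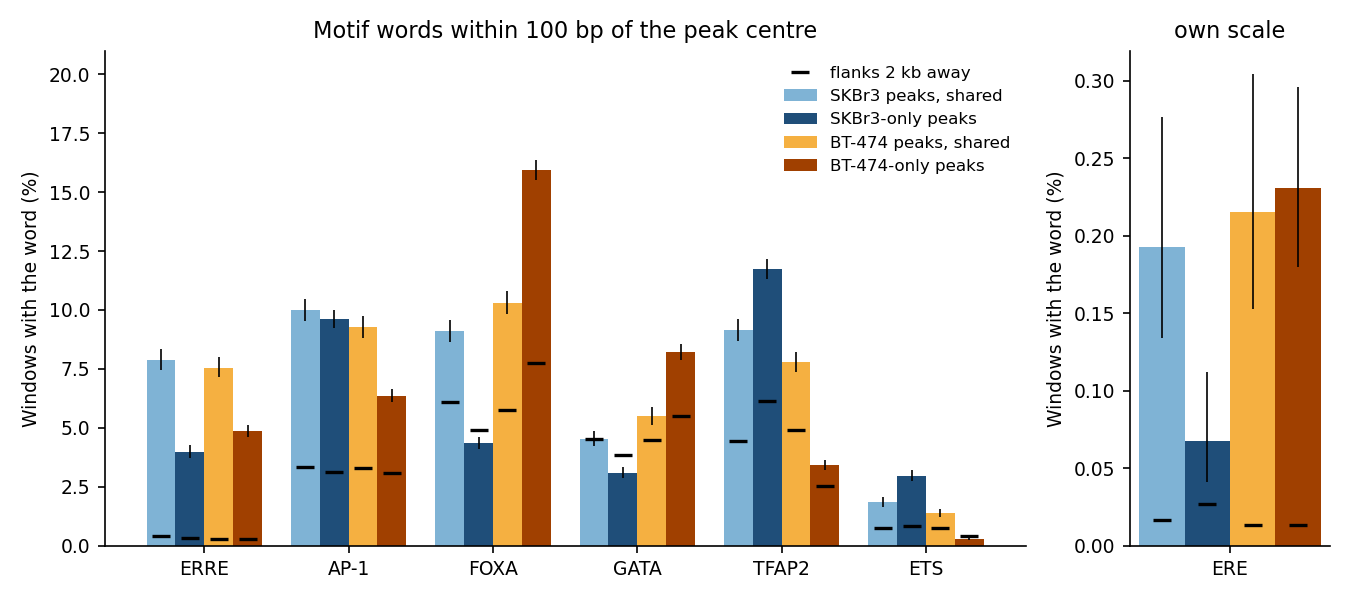
Percentage of 201-bp windows that hold each motif word (vertical axis) by motif (horizontal axis) in the 4 groups of peaks, with 95% Wilson intervals, and in windows 2 kb to each side (black dashes). ERE is drawn on its own scale. FOXA is highest in BT-474-only peaks (15.9%), and ERE is lowest in SKBr3-only peaks (0.0678%).

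Within tertiles of GC content the FOXA difference kept its direction, and the ERE difference did so in the middle and highest tertiles. FOXA was found in 10.6% of SKBr3-only and 18.7% of BT-474-only peaks in the lowest tertile, 6.48% and 12.6% in the middle, and 2.37% and 6.03% in the highest. ERE was found in 0 of 2579 SKBr3-only peaks in the lowest tertile (3 counts would be 0.116%) and 0.142% of BT-474-only peaks, a difference whose interval includes 0 (-0.214 to 0.0136), in 0.0543% and 0.350% in the middle, and in 0.0855% and 0.464% in the highest. GATA kept its order too, with 5.89% and 8.62%, 5.19% and 8.26%, and 1.76% and 4.18%. AP-1 did not: it was found in 5.002% and 5.55% in the lowest tertile, where the intervals overlap, in 13.5% and 7.68% in the middle, and in 8.93% and 7.48% in the highest. The TFAP2 difference was seen in the highest tertile (16.3% and 10.96%), whereas the groups had 1.16% and 1.62% in the lowest and 4.94% and 5.30% in the middle. The ERRE shares were 2.95% and 4.49% in the lowest tertile, a difference of -1.54 points (-2.21 to -0.750), whereas those of the middle tertile were 5.68% and 5.80%, and those of the highest 3.51% and 3.54%.

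**Figure D4:**
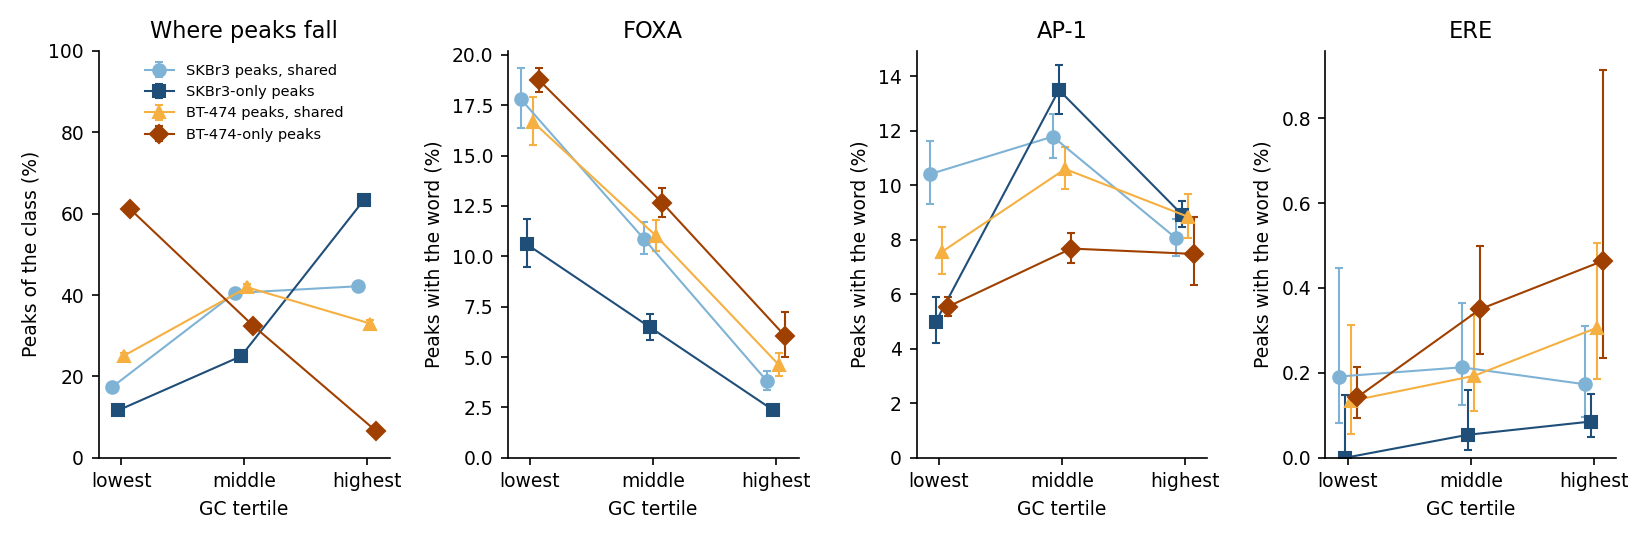
Left, percentage of each group of peaks in each tertile of GC content. Other panels, percentage of peaks with the FOXA, AP-1 or ERE words (vertical axes) by GC tertile (horizontal axes), with 95% Wilson intervals. In the FOXA and ERE panels SKBr3-only peaks (dark squares) lie below BT-474-only peaks (dark diamonds) at each tertile, and in the AP-1 panel only at the lowest.

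Peaks that were already called on vehicle were shared more often. In SKBr3, 62.9% of HRG peaks with a vehicle peak in the same line were shared against 19.2% of those without, and in BT-474 46.4% against 17.6%. The median score percentiles of these groups were 70.1 and 33.5 in SKBr3 and 66.7 and 25.04 in BT-474. In the highest score quartile alone the shared portions were 73.2% and 34.6% in SKBr3 and 63.6% and 54.4% in BT-474, where only 252 peaks lacked a vehicle peak. Of the shared sites 9791 (67.6%) had a vehicle peak in both lines, 1364 in SKBr3 only, 2167 in BT-474 only and 1167 (8.05%) in neither. Of the SKBr3-only sites 66.4% had no vehicle peak in either line, against 42.7% of the BT-474-only sites.

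AP-1 words were most frequent at sites that both lines called on HRG and neither on vehicle. Without a vehicle peak in either line, AP-1 words were found in 19.97% of shared SKBr3 peaks (252 of 1262, interval 17.9 to 22.3). The share in such BT-474 peaks was 17.5% (215 of 1229, 15.5 to 19.7). Where both lines had a vehicle peak, the shares were 7.51% and 7.44%. ERRE words had the opposite order, 4.99% against 8.24% in SKBr3 and 4.72% against 8.43% in BT-474. The mean GC content was 46.8% against 48.3% in SKBr3 and 43.4% against 46.0% in BT-474. Promoter peaks made up 8.72% against 16.5% in SKBr3 and 7.24% against 14.9% in BT-474. Peaks without a vehicle peak were also weaker, with median score percentiles of 40.9 and 32.1 against 76.8 and 79.4. The part of these differences in the AP-1 and ERRE shares was not tested. In SKBr3-only peaks AP-1 was found in 10.9% without and 6.75% with an SKBr3 vehicle peak, and in BT-474-only peaks in 7.13% without and 5.70% with a BT-474 vehicle peak. FOXA was found in 14.6% of BT-474-only peaks without and 17.1% with a BT-474 vehicle peak.

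Most SKBr3-only and BT-474-only peaks were called again in another list of the same line. Of SKBr3-only peaks 67.3% overlapped the SKBr3 vehicle (30.5%), SKBr3 EGF (39.7%), parental pSKBr3 (32.9%) or LRSKBr3 (55.3%) list. The LRSKBr3 cells were kept in 2 µM lapatinib, an inhibitor of EGFR and HER2, and the labels give no starvation or growth factor for them or for pSKBr3. Of BT-474-only peaks 59.2% overlapped the BT-474 vehicle (53.3%) or EGF (41.7%) list. The remaining lists of the other line held 8.97% of SKBr3-only peaks (2 lists) and 27.7% of BT-474-only peaks (4 lists). Shared peaks were called in another list of the same line in 95.05% of SKBr3 and 85.1% of BT-474 cases. The BT-474 lists have a common input, so they are not independent.

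Several long stretches held peaks of 1 line only. In runs of 1-Mb bins without an SKBr3 HRG peak and with at least 10 BT-474 HRG peaks (70 runs, 129 Mb) the BT-474 list held 1691 peaks, 4.10% of its total. The longest was the 12-Mb stretch from 113 to 125 Mb of chromosome 8, where the BT-474 HRG list held 295 peaks and the SKBr3 HRG list 0. The BT-474 vehicle and EGF lists held 190 and 227 peaks there, and the 4 other lists of SKBr3 origin between 0 and 3. Stretches of chromosome 18 (35 to 41 Mb) and chromosome 4 (19 to 23 Mb) held 83 and 42 BT-474 HRG peaks. In the reverse direction there were 8 runs (14 Mb), which included the first Mb of chromosome 11 with 41 SKBr3 HRG peaks and 59 to 61 Mb of chromosome 20 with 48. Copy number was not measured here, and its part in these counts was not tested. Without the bins that lacked a peak in either list the shared portion was 40.8% in SKBr3 and 37.8% in BT-474.

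At gene level both lines were most often alike within 20 kb of a start, whereas within 1 kb SKBr3 alone was the most frequent class with a peak. Of the 19794 protein-coding genes 7951 (40.2%) had an HRG peak centre within 20 kb of a start in both lines, 4517 (22.8%) in SKBr3 only, 2195 (11.1%) in BT-474 only and 5131 in neither. Among the 7951 genes, 1226 (15.4%) had peaks of both lines but no shared peak in range. With centres within 1 kb, 10.6% of genes had a peak in both lines, 22.01% in SKBr3 only and 3.16% in BT-474 only. These shares are the background of the gene lists, and a peak within range is not evidence of regulation. For counts of listed genes with a vehicle peak or a peak in another list, no share of all genes is given.

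Oxidative phosphorylation genes, which encode subunits of the respiratory chain and ATP synthase, were near peaks of both lines in 65 of 78 cases (83.3%, against 40.2% of all genes). Each of the 65 had a shared peak, which 15.4% of all both-lines genes lacked. Within 1 kb of a start 56 of 78 (71.8%) had a peak in both lines, against 10.6% of all genes. The peaks of ATP5F1B and ATP5MC3 (ATP synthase), COX7B (complex IV) and NDUFB5 (complex I) reached a score of 3100, a value that many of the strongest peaks have, in both lists. The 11 genes with SKBr3 peaks only (14.1%, against 22.8% of all genes) were ATP5ME, NDUFA7, NDUFA10, NDUFA11, NDUFA13, NDUFAB1, NDUFB2, NDUFB10, NDUFV1, NDUFV3 and UQCR11. Of these 10 had an SKBr3 vehicle peak in range and 2 a BT-474 vehicle or EGF peak, with no share of all genes to set beside these counts. The 2 with BT-474 peaks only (2.56%, against 11.1% of all genes) were NDUFA5 and NDUFB9.

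The TCA cycle list gave 22 of 28 genes in both lines (78.6%, 60.5 to 89.8, against 40.2% of all genes), 3 in SKBr3 only (DLST, IDH3G and PDHB, 10.7% against 22.8%), 1 in BT-474 only (PDK3, 3.57% against 11.1%) and 2 in neither (ACO1 and PDK1). CS, IDH3A and MDH1, which encode citrate synthase, a subunit of isocitrate dehydrogenase and malate dehydrogenase, had shared promoter peaks with a score of 3100 in both lists. The IDH3A peaks held the ERRE word in both lines. Among 37 glutathione genes 22 had peaks in both lines (59.5%, 43.49 to 73.65, against 40.2% of all genes) and 10 in SKBr3 only. There was 1 in BT-474 only (SLC7A11, the cystine transporter) and 4 in neither (GPX7, GSTA1, GSTM1 and GSTT2B). The SKBr3-only share of 27.0% (15.4 to 43.0) was near the 22.8% of all genes. The SKBr3 genes were CHAC1, CHAC2, GGT1, GGT7, GPX3, GPX4, GSS, OPLAH, and GSTO1 and GSTO2, which share 1 peak. At GPX4, which reduces lipid peroxides, the SKBr3 list held 5 peaks, the highest at percentile 95.4, and no BT-474 list held any.

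**Figure D5:**
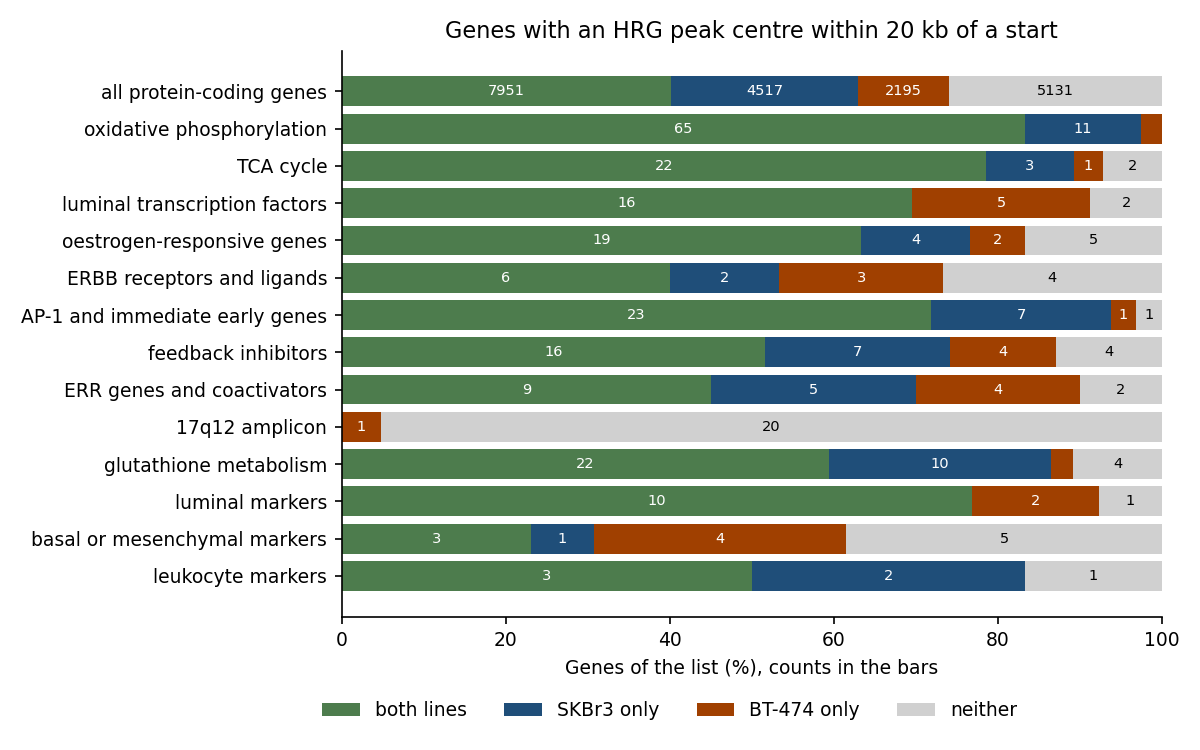
Percentage of the genes of each list (horizontal axis) with an HRG peak centre within 20 kb of a start in both lines, SKBr3 only, BT-474 only or neither, with gene counts in the bars, for all protein-coding genes (top) and 13 gene lists. Oxidative phosphorylation has 65 of 78 genes in the both-lines class, and 20 of 21 genes of the 17q12 amplicon have no peak in either line.

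ERR genes and coactivators had shares whose intervals include those of all genes. ESRRA, which encodes ERRα itself, had a shared promoter peak with a score of 3100 in both lists, with 7 SKBr3 and 5 BT-474 peaks in range. Of 20 genes of this list, 9 had peaks in both lines (45.0%, 25.8 to 65.8, against 40.2% of all genes), 5 in SKBr3 only and 4 in BT-474 only (against 22.8% and 11.1%). SKBr3 peaks only were found at TFAM, POLRMT, SIRT1, PERM1 and PPRC1, of which TFAM and POLRMT serve mitochondrial DNA maintenance and transcription. The TFAM promoter peak was at percentile 91.2. BT-474 peaks only were found at PPARGC1A (PGC-1α), ESRRB, NCOA1 and NCOA2, with percentiles of 54.4 to 83.6, and NCOA3 and NRF1 had none. The PPARGC1A peak, in an intron at percentile 54.4, held an AP-1 word, and the other 7 lists held no peak in range of that gene. The other 3 genes (ESRRB, NCOA1 and NCOA2) had a peak in another list of SKBr3 origin. NCOA2 lies in a stretch of chromosome 8 (71 to 75 Mb) with 65 BT-474 and 0 SKBr3 HRG peaks.

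The ERBB receptors and ligands gave 6 of 15 genes in both lines (interval of the share 19.8% to 64.3%, against 40.2% of all genes), with shared peaks at ERBB3 (score of 3100 in both), EREG, BTC, EGF and NRG2, and separate peaks at NRG4. SKBr3 peaks only were found at EGFR and HBEGF, and BT-474 peaks only at ERBB4, NRG3 and EPGN. The highest ERBB4 peak lay 3898 bp from a start at percentile 81.2, and that of NRG3 in an intron with a score of 3100. ERBB2, AREG, NRG1 and TGFA had no HRG peak in range in either line. From the first to the last gene of the 17q12 list around ERBB2 (chr17:37560538-38256842) neither HRG list held a peak, although the 1 Mb to each side held 36 SKBr3 and 30 BT-474 HRG peaks. In that stretch 7 of the 8 lists had 0 peaks and the LRSKBr3 list had 3. Copy number and input signal were not measured there, and their part was not tested. The absence of a called peak is not evidence of absent binding. NR1D1, the clock gene REV-ERBα, was the 1 gene of 21 with a peak in range, in BT-474 only. The 21 genes form 1 stretch and are not separate cases. Of all genes 25.9% had no peak in either line.

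Luminal lineage regulators, a list that also holds the prolactin receptor gene PRLR, had peaks in both lines in 16 of 23 cases (69.6%, 49.1 to 84.4, against 40.2% of all genes). Each of the 16 had a shared peak, which 15.4% of all both-lines genes lacked. The BT-474 only class held 5 genes (21.7%, 9.66 to 41.9, against 11.1% of all genes) and the SKBr3 only class 0 (against 22.8%). Within 1 kb of a start 8 genes (34.8%, 18.8 to 55.1) were in SKBr3 only, 1 in BT-474 only and 3 in both lines, the order of all genes (22.01%, 3.16% and 10.6%). By the lower of the 2 lines' percentiles the highest were ELF3, ZNF552, EHF and XBP1, which encode transcription factors of epithelial cells. FOXA1, GATA3 and GRHL2 belonged to the both-lines class, with BT-474 percentiles of 67.6, 31.4 and 90.8 for the highest peak and SKBr3 percentiles of 87.1, 51.9 and 66.7. BT-474 peaks only were found at ESR1, the gene of ERα, with 3 peaks (highest percentile 67.3), RARA (4 peaks, 90.8), MYB (3 peaks, 49.3), TFAP2B (2 peaks, 72.3) and TRPS1 (7 peaks, 68.9). PGR, the progesterone receptor gene, and TFAP2C had no HRG peak in either line. Of these 5 genes 4, all but TRPS1, had a peak in range in at least 1 of the 4 other lists of SKBr3 origin. No share of all BT-474-only genes is given for that count. TRPS1 lies in the stretch of chromosome 8 from 113 to 125 Mb, where the SKBr3 HRG list held 0 peaks and the BT-474 HRG list 295. Copy number was not measured there.

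Oestrogen-responsive genes were in the both-lines class in 19 of 30 cases (63.3%, 45.5 to 78.1, against 40.2% of all genes), of which 4 (AGR3, KRT13, PDZK1 and TFF3) had no shared peak in range, as had 15.4% of all both-lines genes. Their shares in SKBr3 only (13.3%, 5.31 to 29.7) and BT-474 only (6.67%, 1.85 to 21.3) had intervals that include the 22.8% and 11.1% of all genes. TFF1, a trefoil peptide gene that ERα induces, had a shared promoter peak, at percentile 94.9 in BT-474 and 65.6 in SKBr3, and the SKBr3 peak had no vehicle counterpart. GREB1 had 8 BT-474 and 5 SKBr3 peaks, of which 2 in each line were shared. Its highest BT-474 peak, 605 bp from a start at percentile 96.9, was BT-474-only and held AAGGTCA and GATA words. The RET peaks, with a score of 3100 in SKBr3 and percentile 86.4 in BT-474, held the ERRE word in both lines. SKBr3 peaks only were found at ADCY9, CCN5, CELSR2 and EGR3, and BT-474 peaks only at RARA and SIAH2, a ubiquitin ligase gene whose highest peak had a score of 3100. AREG, CXCL12, IGFBP4, PGR and STC2 had none.

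AP-1 and immediate early genes, the first genes that growth factors induce, were in the both-lines class in 23 of 32 cases (71.9%, 54.6 to 84.4, against 40.2% of all genes). A further 7 were in SKBr3 only (21.9%, near the 22.8% of all genes). These were JUN, FOSB, SRF, EGR3, KLF2, IER5 and BATF2, of which 2 had an SKBr3 vehicle peak in range, a count without a background share. The JUN peak lay 401 bp from its start at percentile 79.1 and had no vehicle counterpart, and no BT-474 list held a peak in range. BATF3 had a peak in BT-474 only, and EGR1 in neither. FOSL2, BATF, ATF3 and MAFK were the highest of the both-lines class by the lower of the 2 percentiles. The FOSL1 peaks were shared, at percentile 84.4 in SKBr3 and 71.8 in BT-474. The shared promoter peak of BATF held the ERRE word in both lists.

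Feedback inhibitors of growth factor signalling were in the both-lines class in 16 of 31 cases (51.6%, 34.8 to 68.0, against 40.2% of all genes). Of these 16 genes 5 lacked a shared peak, as did 15.4% of all both-lines genes. Their shares in SKBr3 only (22.6%) and BT-474 only (12.9%) were near the 22.8% and 11.1% of all genes. DUSP6, an ERK phosphatase gene, was among the 5: its SKBr3 peak was weak (percentile 3.44, 17274 bp away) and its BT-474 peak lay 319 bp from the start at percentile 67.7. By the lower of the 2 percentiles DUSP1, SPRED2, SPRY4 and NF2 were the highest, each with a shared peak. SKBr3 peaks only were found at DUSP2, DUSP7, RASAL1, RNF41, SOCS3, SOCS4 and SPRY2, and BT-474 peaks only at CBLB, LRIG1, LRIG3 and NF1. DUSP10, PHLPP1, RASA1 and SPRY3 had none. All 4 BT-474 genes and 2 of the 7 SKBr3 genes had a vehicle peak in the same line. In a list of the other line outside HRG, 3 of the 4 and 2 of the 7 had a peak. These counts have no share of all genes beside them.

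Peaks at marker genes do not measure expression, and the lists hold no other check of cell identity. The shares of all genes to set beside these counts are 40.2% in both lines, 22.8% in SKBr3 only and 11.1% in BT-474 only. Of 13 luminal epithelial markers, 10 had peaks in both lines (among them KRT8, KRT18, EPCAM and SPDEF), and KRT19 and CDH1 had BT-474 peaks only. Within 1 kb of a start 6 of the 13 had peaks in SKBr3 only, 1 in BT-474 only and 2 in both lines, and SKBr3 only was also the most frequent of these classes among all genes (22.01%). Of the 6 KRT19 peaks, 1 overlapped an SKBr3 HRG peak whose centre lay out of range. CDH1, the gene of E-cadherin, had 6 BT-474 HRG peaks and no peak in the SKBr3 HRG list or the 4 other lists of SKBr3 origin. Copy number at CDH1 was not measured, and its part in this count was not tested. Of 13 basal or mesenchymal markers, 3 had peaks in both lines (LAMB3, SPARC and TP63), 1 in SKBr3 only (KRT14), 4 in BT-474 only (ACTA2, CAV1, CDH2 and TWIST1) and 5 in neither (KRT5, KRT17, SNAI2, VIM and ZEB1). Of 6 leukocyte markers, 3 had peaks in both lines (CD3E, LCP1 and PTPRC), 2 in SKBr3 only (CD14 and CD79A) and 1, SPI1, in neither.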

How the data were processed

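ERRα ChIP-seq peaks of HRG-treated SKBr3 and BT-474 cells were analysed. Per the labels and the study's methods, the authors aligned reads to hg19 with BWA 0.5.9, used SAMtools 0.1.18, and took the MACS peaks that passed a P threshold of 1e-05. The deposited score of each peak is −10 log10 of its P value, starting at 50. The comment lines of 3 SKBr3 lists, HRG included, name FindPeaks, while their peaks carry MACS names. In all 8 lists 0 peaks ended beyond their hg19 chromosome.

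Overlaps, nearest starts (19794 protein-coding genes of GENCODE 44 lifted to GRCh37) and motif words on both strands (201-bp windows, flanks 2 kb away) were computed with Python 3.11.15, numpy 2.4.6, pandas 2.3.3, SciPy 1.17.1 and pysam 0.24.0, and tested on simulated data. Listed symbols matched directly, apart from 2 matched through RefSeq synonyms. Genes were named where a class of a list held 12 or fewer genes, as its highest examples (by the lower of the 2 lines' percentiles, an order set after values were seen), or as nearest genes of the 3 highest peaks per group, besides a fixed set that included ESRRA, TFF1 and ERBB2. The comparison, words and gene lists were chosen with earlier results of these data known. The GC tertiles, the vehicle-status split of motifs and the empty stretches were added after the first results were seen.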

Additional observations from a re-analysis of the deposited data

Results flagged for a closer look

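The HRG list differed from the vehicle list in opposite directions in the 2 lines for 4 measures of the peak lists, and in sign alone for GATA words. The difference between lines was not tested, because each condition has 1 list. Mean GC content at peak centres was higher on HRG by 4.66 points in SKBr3 (50.5% against 45.8%), and the HRG minus vehicle difference was -2.34 points in BT-474 (40.4% against 42.7%). The promoter share differed from vehicle by 5.01 points in SKBr3 and by -3.37 points in BT-474. The share of peaks with the TFAP2 word differed by 2.46 and -1.61 points, that with the ETS word by 0.593 and -0.390 points, and that with the GATA words by -1.28 and 0.0967 points, where the counting interval of the BT-474 HRG share (6.99% to 7.49%) contains the vehicle share of 7.14%. On EGF, the GC difference from vehicle was 0.616 points in SKBr3 and -2.40 points in BT-474, and the signs were also opposite for the TFAP2 (0.259 and -1.26) and GATA (-0.252 and 0.124) words, while the promoter differences (-0.571 and -3.30) and the ETS differences (-0.0595 and -0.356) had the same sign in both lines.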

How the results depend on the processing

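Each of 14 results was recomputed under up to 16 alternatives, 12 of them planned and 4 (1-Mb bins with a peak in both lists, and each GC tertile) chosen after seeing the data. Of 108 values 53 stayed within the counting interval of the reported value (for counts, within 1.5 times), 53 moved further and 2 reversed. Differences are SKBr3-only minus BT-474-only in percentage points. At P of at most 1e-10 in both lists 37.5% of BT-474 peaks were shared, 14192 peaks were SKBr3-only and 15995 BT-474-only, the promoter, ERRE and FOXA differences were 17.9, -1.34 and -12.4, and 85.4% of SKBr3-only and 82.9% of BT-474-only peaks were in another list of the same line. With lists of equal size the shared portions were 38.8% and 38.1%, and 64.2% of BT-474-only peaks were in another BT-474 list. With an overlap of at least 50% of both peaks these were 28.6% and 25.7% shared, 13.5, -0.245 and -9.97 for promoter, ERRE and FOXA, and 71.5% and 63.0% in another list. With centres within 500 bp they were 30.02% and 27.1%, 14.1 for promoter and -10.4 for FOXA, and 71.2% and 62.5%. When every list of the other line counted, they were 45.8% and 53.7%, 14.6, -0.0877 and -12.2, and 65.2% and 53.5%.

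With promoters within 500 bp the promoter difference was 13.1. A motif window of 50 bp to each side gave -0.141 for ERRE, 1.89 for AP-1, -0.0819 for ERE and -6.02 for FOXA, and one of 250 bp gave -2.67 for ERRE and -22.2 for FOXA. Over 1 kb from a start the ERRE and AP-1 differences were -0.291 and 4.46, and above the median score ERRE and FOXA were -1.33 and -13.3. The shorter word AAGGTCA reversed the ERRE difference, to 1.86. In 1-Mb bins with a peak in both lists 37.8% of BT-474 peaks were shared. The lowest GC tertile gave -1.54 for ERRE and -8.15 for FOXA and reversed AP-1, to -0.549. The middle tertile gave -0.118 for ERRE, 5.82 for AP-1, -0.296 for ERE and -6.17 for FOXA, and the highest gave -0.0251, 1.45, -0.379 and -3.66. The causes were not tested. No paired analysis was possible because each line has 1 HRG peak list (2 libraries pooled in SKBr3, 1 library in BT-474), and for the same reason no replicate could be left out. The depth is unknown, so a peak that 1 list lacks may lie below its detection limit.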
